A study of Homo sapiens with 4 samples.

Results

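The mitochondrial ribosomal protein genes examined here were the gene names on the array that begin with MRPL (large subunit) or MRPS (small subunit) followed by a digit. They numbered 78 of 36337 gene names, measured by 101 of 50599 probes. Of the 101 probes, 95 were bright enough to be tested, and these covered all 78 gene names. The name rule also took in an antisense transcript, MRPL23-AS1, and a pseudogene, MRPL42P5, so 76 of the 78 names belong to genes of proteins.

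The measurements come from GIST-T1, an established line of human cells grown from a gastrointestinal stromal tumor. The cells were electroporated with 100 pmol of a mirVana miR-335 mimic, a synthetic RNA that stands in for the mature microRNA, or with 100 pmol of the mirVana mimic Negative Control #1. RNA was taken 48 h later, and 100 ng of it was labeled for a 1-color array, with 2 arrays in each group and no untransfected cells. The groups model an excess of a microRNA in a single cell line, and nothing in the labels says that the arrays of a group came from separate cultures, so p-values measure the spread between these arrays, which may be technical. The titles, the treatment field and the first line of the descriptions all name miR-335, but a second line in the descriptions of both mimic samples reads miR-34a. PDGFRA, whose transcript carries the putative miR-34a target sites that the study put in its reporter plasmids, read 5.91 with the mimic and 5.98 in the controls (group means); which label is right was not tested. The labels do not say which strand of miR-335 the mimic delivered. Markers of gastrointestinal stromal tumor (KIT, ANO1, ETV1, PRKCQ, CD34 and PDGFRA) were well above background on all 4 arrays, whereas CDH1, KRT20, PTPRC, CD3E, PECAM1 and MYH11 were above it on 0 arrays. Of the remaining markers of other cell types, EPCAM and DES were well above background on 4 arrays and CDH5 on 2. All 4 arrays lay on 1 slide with the controls at its first positions, so array position and group cannot be told apart.

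Mitochondria translate a small set of proteins of the respiratory chain, encoded in their own DNA, on a dedicated ribosome. The ribosomal RNAs come from mitochondrial DNA, but every protein of that ribosome is encoded in the nucleus, made in the cytosol and imported. Some of these proteins descend from bacterial ribosomal proteins and others were added in mitochondria. A microRNA binds messenger RNAs mainly through its seed, the bases 2 to 8 from its 5′ end, and usually lowers their level.

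The mature strands of miR-335 are shown because their seeds, in capitals, define what the mimic could bind. They are taken from RefSeq (GRCh38.p14) and lie on the plus strand, the 5p strand at chr7:130496126-130496148 and the 3p strand at chr7:130496162-130496183.
hsa-miR-335-5p: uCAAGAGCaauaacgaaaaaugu
hsa-miR-335-3p: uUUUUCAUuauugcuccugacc
The DNA letters complementary to the 5p seed, GCTCTTG, were found in 0 of the 101 member probes and in 0.437% of all 50599 probes, and those complementary to the 3p seed, ATGAAAA, were found in 1 member probe and in 1.22% of all probes. A probe reads only 60 bases of a transcript, so these counts say nothing of sites elsewhere in it.

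The first question was whether the mitochondrial ribosomal protein transcripts differed between mimic and control cells. Values are log2 intensities relative to the 75th percentile of the same array, and a difference is the mean of the mimic arrays minus that of the control arrays. No member passed limma's test at an adjusted p of 0.05 over all 20328 tested probes: 0 of 95 probes were called, where the background was 2.62% of all tested probes (1.47% higher and 1.15% lower with the mimic). At an unadjusted p under 0.05 the count was 9 of 95 (9.47%), against 25.3% of all tested probes. The smallest adjusted p of a member was 0.0608. Because this is RNA of a cell population, fewer cells expressing a gene and less RNA per cell cannot be told apart.

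The differences were small. In 78 of 95 member probes (82.1%) the difference was within 0.1 log2 units of 0, compared with 49.6% of all tested probes. Most members were bright: 70 of 95 were among the brightest 5082 of the tested probes, where 68.0% of all probes and 88.6% of the members had a difference within 0.1. The 95% interval of the difference lay wholly inside 1.5-fold either way for 92 of 95 member probes (96.8%), and for 83.2% of all tested probes. The exceptions were the MRPL44 probe described below, a dim MRPL19 probe and a dim MRPS18C probe. The difference between group means exceeded 1.5-fold for 1 member probe, that of MRPL44, where the background was 3.90% of all tested probes. With the brightest tested probe of each gene, 54 of 78 gene names (69.2%) were higher and 24 lower with the mimic, at a median difference of 0.04. The 54 include MRPL44, which was higher on 1 mimic array only. Of all 15454 tested gene names 44.7% were higher, at a median of -0.02. The direction over the members turned under spike-in scaling. The mimic and control arrays did not overlap in 53 of 95 member probes, 41 of them higher and 12 lower with the mimic. The background was 12131 of 20328 tested probes (59.7%), 5515 of the 12131 higher and 6616 lower. Relative to external spike-in RNA the median over members was -0.15 and that over all tested gene names -0.21, and 47 of 95 member probes were called lower where the background was 44.6%. Under spike-in scaling 4 of the 95 member probes stayed higher with the mimic (those of MRPL44 and MRPS25 and 1 each of MRPS16 and MRPL19). Replicate arrays differed by a median of 0.04 in both groups over the member probes, and the group means by a median of 0.05. Over all tested probes these medians were 0.06 in both groups and 0.10 between group means. A group mean averages 2 arrays and varies less than a single array, so the 2 kinds of difference are not on a like scale.

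**Figure D1:**
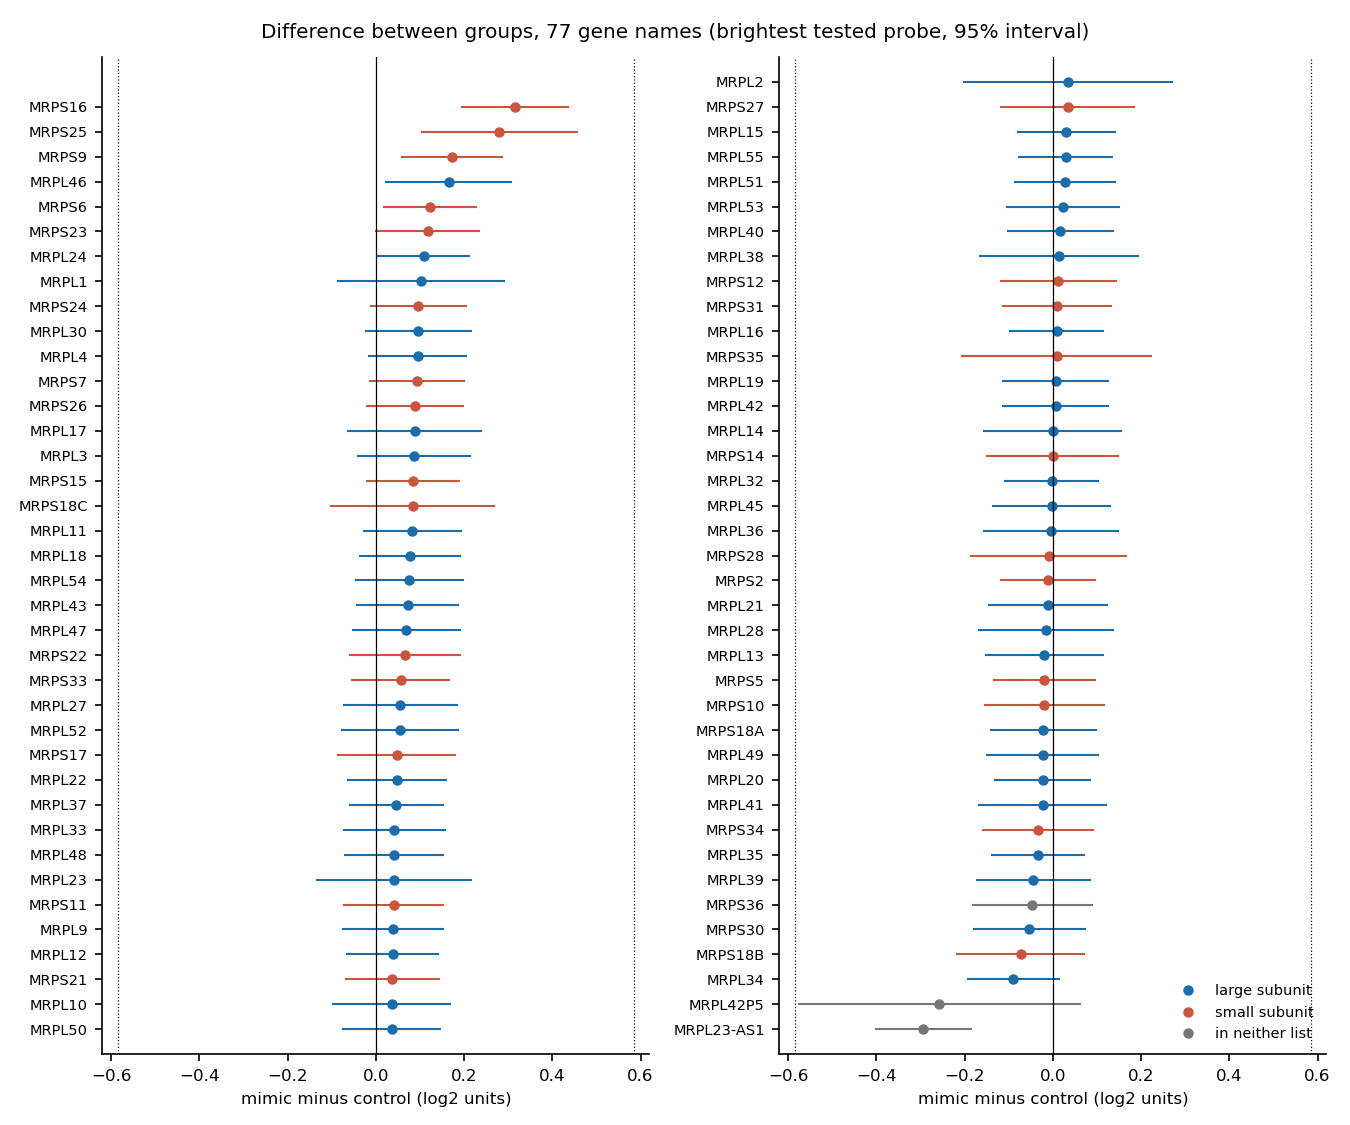
Difference between mimic and control arrays (x axis, log2 units) for 77 mitochondrial ribosomal protein gene names, each at its brightest tested probe, with points for the limma estimate, bars for its 95% interval and dotted lines at 1.5-fold. The estimates run from -0.29 for MRPL23-AS1 to 0.32 for MRPS16 and every interval stays inside the dotted lines; MRPL44, whose mimic arrays disagree, is left out.

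The small subunit reads the messenger RNA. Of its 26 gene names, 19 were higher and 7 lower with the mimic under percentile scaling, with a median difference of 0.04. Among all tested gene names 44.7% were higher. Of the 26, 0 were called, where the background was 2.76% of all tested gene names. The largest difference of a member other than MRPL44 belonged to MRPS16, a counterpart of bacterial S16 that is mutated in a mitochondrial disease. Its brighter probe (chr10:75008696-75008755, hg19, minus strand) read 6.16 and 6.20 on the mimic arrays and 5.88 and 5.84 on the control arrays. Both mimic arrays were above both controls, by 0.32 on the log2 scale (SE 0.04), a ratio of 1.24, with a limma adjusted p of 0.0629. The second MRPS16 probe, which starts 443 bases away on the same strand, read 3.36 and 3.27 with the mimic and 3.29 and 3.35 in the controls. There the groups overlapped and the difference was -0.0040, so the difference between groups was seen with 1 probe of this gene and not with the other.

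MRPS25, a subunit protein added in mitochondria, had a single probe that read 0.66 and 0.75 with the mimic and 0.47 and 0.38 in the controls, a difference of 0.28 (SE 0.06, limma adjusted p = 0.113). MRPS9, the counterpart of bacterial S9, read 3.1 on both mimic arrays and 2.95 and 2.90 on the controls, a difference of 0.17 (limma adjusted p = 0.118). In both genes the groups did not overlap. MRPS6 and MRPS23 were each printed on 10 spots, and the SD among the spots of an array was 0.0567 to 0.0720 for MRPS6 and 0.0638 to 0.0815 for MRPS23. MRPS6, counterpart of bacterial S6, read 4.60 and 4.61 with the mimic and 4.48 and 4.48 in the controls, a difference of 0.12 (limma adjusted p = 0.159). MRPS23, found only in mitochondria, read 2.92 and 2.95 with the mimic and 2.80 and 2.83 in the controls, a difference of 0.12 (limma adjusted p = 0.196).

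Among the small subunit proteins with known roles, MRPS12, at the decoding center, differed by 0.013, MRPS7, in the head of the subunit, by 0.09, and MRPS22, mutated in mitochondrial disease, by 0.07. The MRPS18 proteins are relatives of bacterial S18 and paralogs of each other, and they occupy different places. MRPS18C differed by 0.08 at its bright probe, with overlapping groups. MRPS18B read 4.49 and 4.46 with the mimic and 4.59 and 4.50 in the controls, a difference of -0.07 (limma adjusted p = 0.423) that was -0.028 without the first control array and -0.12 without the second. MRPS18A, which sits in the large subunit despite its name, differed by -0.022. None of these differences passed the test.

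**Figure D2:**
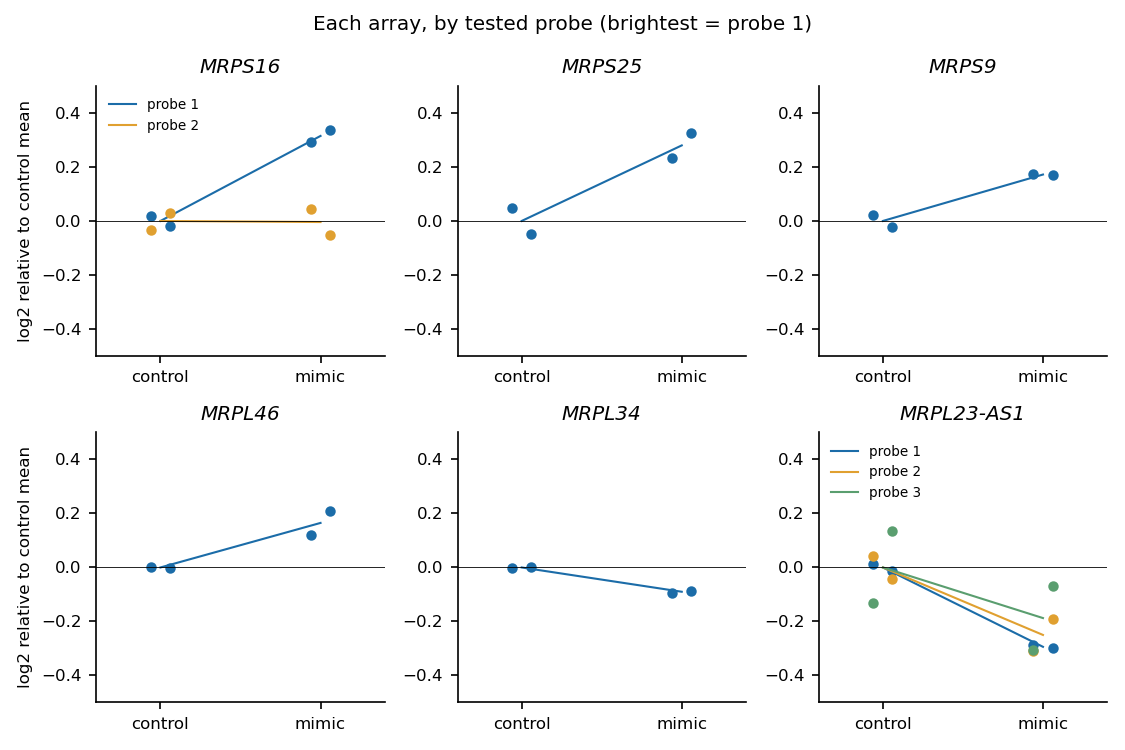
Each array of 6 members, drawn relative to the mean of the control arrays of the same probe (y axis, log2 units), with a line joining the group means and a color for each tested probe. Only 1 of the 2 MRPS16 probes differs between groups, by 0.32, whereas the 3 MRPL23-AS1 probes lie between -0.29 and -0.19.

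The large subunit forms the peptide bond. Of its 49 gene names, MRPS18A and MRPS30 included, 35 were higher and 14 lower with the mimic under percentile scaling. Among all tested gene names 44.7% were higher. Of the 49, 0 were called, where the background was 2.76% of all tested gene names. The median difference was 0.04. MRPL44 is among the 35 through 1 mimic array only. MRPL46, a protein added in mitochondria, read 2.49 and 2.58 with the mimic and 2.37 and 2.37 in the controls, a difference of 0.16 (SE 0.05, limma adjusted p = 0.164). MRPL24, counterpart of bacterial L24, read 4.80 and 4.81 with the mimic and 4.69 and 4.69 in the controls, a difference of 0.11 (limma adjusted p = 0.185). In both genes the groups did not overlap.

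The lowest differences of the subunit were those of MRPL34 and MRPS30. MRPL34, counterpart of bacterial L34, read 5.59 and 5.60 with the mimic and 5.68 and 5.68 in the controls, a difference of -0.09 (limma adjusted p = 0.236). MRPS30, which also belongs to the large subunit, differed by -0.05 and its groups did not overlap. MRPL10 and MRPL12, which build the stalk that receives the translation factors, differed by 0.04 each at the brighter probe. At the other probe MRPL10 differed by -0.04 and MRPL12 by 0.11. MRPL11, at the base of the stalk, differed by 0.08. MRPL3 and MRPL4, counterparts of bacterial L3 and L4, both differed by 0.09, without overlap between groups. MRPL45, which lies at the exit of the peptide tunnel and holds the ribosome at the inner membrane, differed by -0.0027 at its brighter probe. Its other probe differed by 0.09, without overlap between groups. MRPL41, a protein added in mitochondria, differed by -0.023.

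Grouped by ancestry, the 46 gene names with a bacterial counterpart had a median difference of 0.04, with 33 higher and 13 lower. The 29 without one had a median of 0.03, with 21 higher (MRPL44 among them) and 8 lower. Of the relatives of bacterial S18, MRPS18C was counted with a counterpart, and MRPS18A and MRPS18B were counted without one. MRPS36, since assigned to the oxoglutarate dehydrogenase complex rather than the ribosome, was kept out of both groups; its probes differed by -0.05 and -0.12. Among the probes of the highest and lowest signal, MRPL51, MRPL47, MRPS24 and MRPL21 differed by 0.03, 0.07, 0.10 and -0.011, and the dim MRPL1 and MRPL2 by 0.10 and 0.04.

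**Figure D3:**
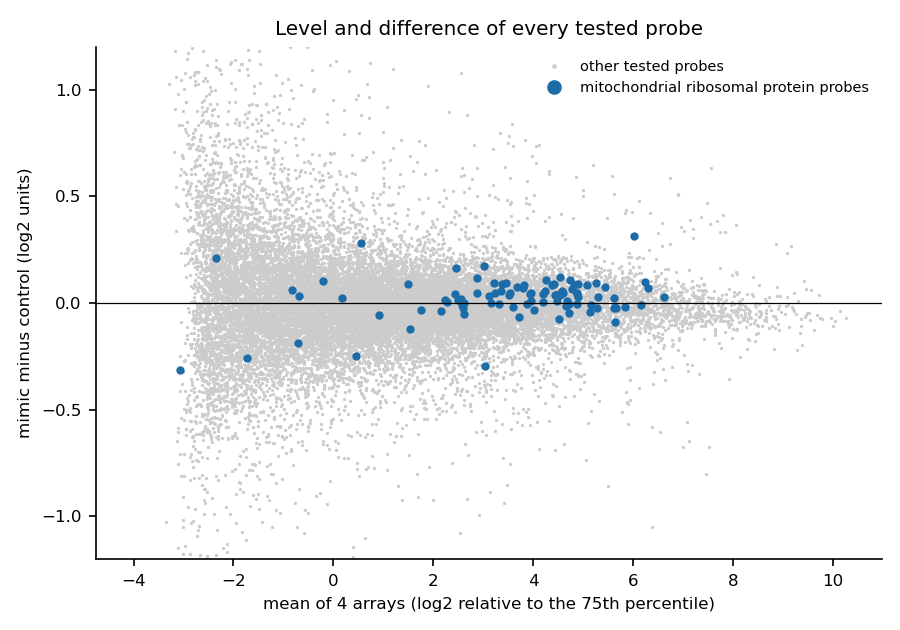
Difference between groups (y axis, log2 units, limited to 1.2 either way) against the mean signal of the 4 arrays (x axis, log2 relative to the 75th percentile) for 20233 other tested probes (grey) and the mitochondrial ribosomal protein probes (blue). Most members lie at high signal in a narrow band around 0; 133 probes, 1 of them the MRPL44 probe, fall outside the axis.

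At the brightest probe of each gene, the members that do not make a protein had the lowest differences of the family, although with normexp background correction MRPL42P5 was no longer below MRPL34. MRPL23-AS1 is named as an antisense transcript of MRPL23, and its 3 probes lie on the minus strand of chromosome 11, the brightest at chr11:2004439-2004498 (hg19). That probe read 2.89 on both mimic arrays and 3.20 and 3.17 on the controls, a difference of -0.29 (SE 0.04, limma adjusted p = 0.0608). The second read 0.27 and 0.38 with the mimic and 0.62 and 0.53 in the controls, a difference of -0.25 (limma adjusted p = 0.139). The third read -0.91 and -0.67 with the mimic and -0.74 and -0.47 in the controls, a difference of -0.19 with overlapping groups (limma adjusted p = 0.453). All 3 probes pointed the same way, and the protein gene MRPL23 differed by 0.04 with overlapping groups. The pseudogene MRPL42P5 read -1.97 and -1.73 with the mimic and -1.53 and -1.66 in the controls, a difference of -0.26 (limma adjusted p = 0.259). It was -0.0545 with normexp background correction, and -0.13 without the first mimic array and -0.38 without the second. Its parent MRPL42 differed by 0.0061. Whether the pseudogene's probe also binds MRPL42 RNA was not tested.

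MRPL44, a large subunit protein with the fold of an RNA-cutting enzyme, was the member whose mimic arrays differed by over 2 log2 units, the limit set for a spot artefact; 22 of the 20328 tested probes did so. Its probe (chr2:224831754-224831813, hg19) had 1 spot per array and read 7.46 and 1.63 on the mimic arrays and 1.63 and 1.71 on the controls. The high value came from 1 array, so the mean difference of 2.88 had an SE of 2.17 and a limma adjusted p of 0.464. Without that array the difference was -0.038. On it, the local background around the spot was 127 intensity units, against 27 to 28 on the others. Of the 24 spots within 2 rows and columns, 14 were also more than 2 log2 units above the median of the other arrays, with a median excess of 6.06 over the 24. On the other mimic array and on the first control 0 neighbours were, and on the second control 1 was. The scanner software had not marked the MRPL44 spot as an outlier on any array. No other member spot among the 155 exceeded the median of the other arrays by more than 2 log2 units, and 0 other member spots lay among these neighbours.

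**Figure D4:**
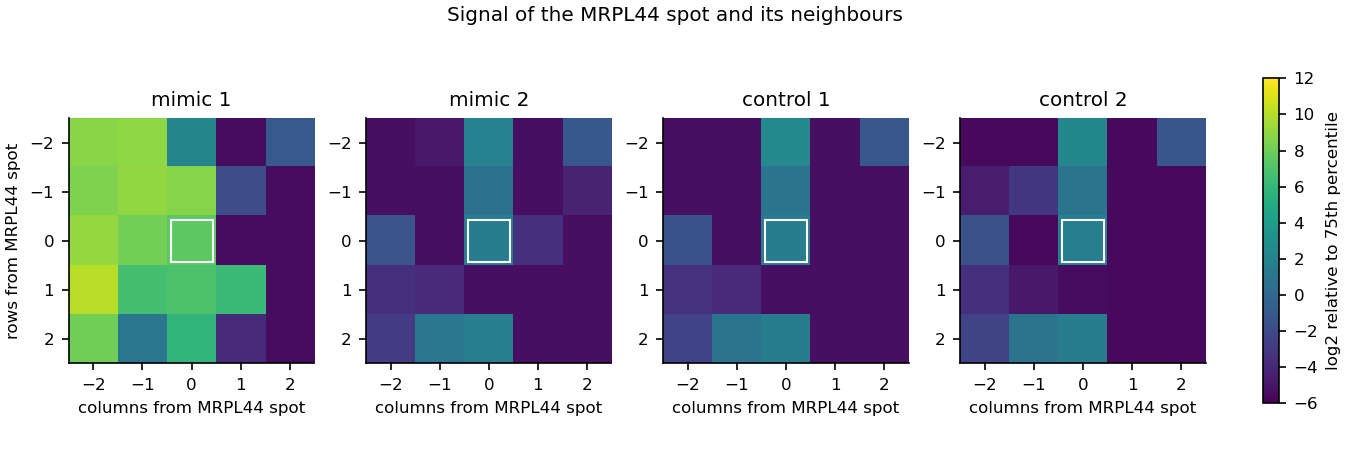
Signal of the MRPL44 spot (white square) and the 24 spots within 2 rows and columns of it on each of the 4 arrays, with color for the log2 signal relative to the 75th percentile of the array. On the first mimic array the left part of the patch is bright, and 14 of 24 neighbours exceed the median of the other arrays by more than 2 log2 units.

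Of 15 gene names with more than 1 tested probe, 12 had differences within 0.11 of each other, a tolerance wider than most of the differences themselves, and in 6 the probes had opposite signs. The widest gap, 0.40, was in MRPS18C, whose bright probe differed by 0.08 and whose second probe by -0.31 (limma adjusted p = 0.210). That second probe was well above background on the 2 control arrays only. It was therefore tested only through the group in which it read higher, and its difference and the gap carry that selection. MRPS16 followed with 0.32. In MRPL19, the probe on 10 spots differed by 0.0063 and the dimmest by 0.21, with an interval from -0.33 to 0.76. The 6 probes that were not tested belonged to MRPS17, MRPS27, MRPL30 (2 probes), MRPL38 and MRPL43. Of these, 5 were well above background on 0 arrays and that of MRPL38 on 1, and each of these genes had another probe that was tested.

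Other genes of mitochondrial translation also gave no calls. Over 5 lists outside the family, 0 of 82 tested gene names passed limma's adjusted threshold, where the background was 2.76% of all tested gene names. Of the 82, 46 were higher and 36 lower, and the median difference was 0.0068. At an unadjusted p under 0.05 the share was 11.0%, against 25.9% of all tested gene names. Among 7 subunit proteins with other names, DAP3, a small subunit protein that binds GTP, differed by -0.03, ICT1, a large subunit protein that releases stalled peptides, by -0.02, and AURKAIP1 by 0.11 (limma adjusted p = 0.179). Among 15 translation factors and related proteins, TUFM, the elongation factor that delivers tRNAs, differed by 0.08 and GUF1, a ribosome-bound GTPase, by -0.19 (limma adjusted p = 0.162). The 19 mitochondrial tRNA synthetases and amidotransferase subunits had a median of 0.05, with SARS2 (serine) at 0.28 (limma adjusted p = 0.106) and WARS2 (tryptophan) at 0.26 (limma adjusted p = 0.138). The 27 assembly and rRNA modification genes had a median of 0.01. SPG7, a subunit of the protease that matures MRPL32, differed by 0.13 (limma adjusted p = 0.153). AFG3L2, the other subunit of that protease, differed by 0.00058.

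Among 14 genes of mitochondrial transcription and its regulators, 10 were lower and 4 higher with the mimic, at a median of -0.05. TFAM, which packages mitochondrial DNA and takes part in its transcription, differed by -0.08 (limma adjusted p = 0.345). POLRMT, the mitochondrial RNA polymerase, differed by -0.07 (limma adjusted p = 0.417). The 4 higher genes were MYC (0.12), NRF1 (0.08), PPRC1 (0.03) and TFB2M (0.02), and GABPA differed by -0.015. PPARGC1A, a coactivator of mitochondrial genes, read -1.96 and -1.91 with the mimic and -1.66 and -1.30 in the controls, a difference of -0.46 (limma adjusted p = 0.169). YY1, a transcription factor, differed by -0.12 (limma adjusted p = 0.171). The groups did not overlap for either gene.

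**Figure D5:**
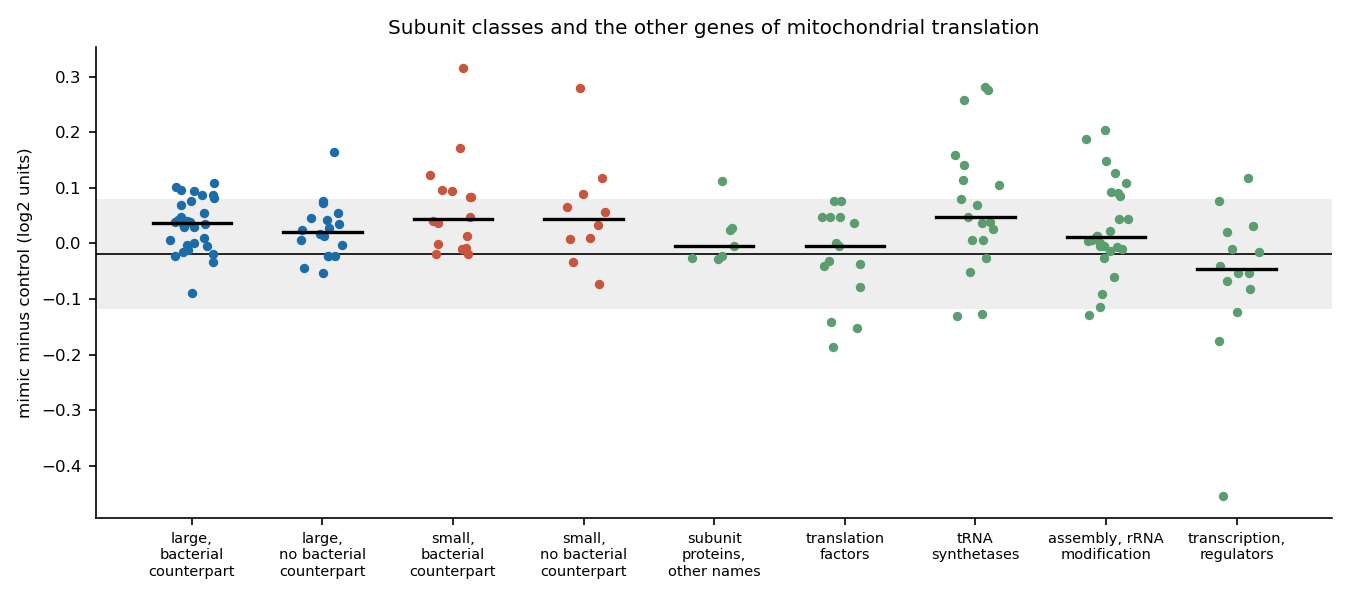
Difference between groups (y axis, log2 units) for the brightest tested probe of each gene in 4 subunit classes and 5 other lists of mitochondrial translation, with black bars for list medians, the line for the median of all tested gene names (-0.02) and the grey band for their quartiles. The 4 subunit classes have medians between 0.02 and 0.04, the transcription list -0.05; MRPL44 is left out.

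Short motifs were searched in the promoters of the family. RefSeq promoter sequences of 300 bases (GRCh38.p14, 250 before to 50 after the start) were found for 68 of the 78 gene names, with 84 promoters. The letters AAGATGGC, a core bound by YY1, were searched on both strands and occurred in 23 of 84 promoters (27.4%), against 2.89% of all 35116 promoters. The ETS factor core CCGGAAGT occurred in 14 (16.7%, against 4.14%) and the NRF1 core GCGCATGC in 6 (7.14%, against 3.05%). The YY1 letters lay at or after the start in 16 of 24 sites, with a median distance of 9 bases, while the ETS letters had a median of -32. The YY1 letters contain ATG, the letters of a start codon. Whether these matches are the start codons of the genes was not tested. The 35116 promoters were not matched for a start codon in this place, so the excess cannot be read as sites of YY1. Windows of 30 bases are shown for members described above, in the direction of the gene with the motif in capitals, the first 5 for YY1 and the rest for ETS and NRF1. These are chr5:44808949-44808978 (plus strand) for MRPS30, chr15:88467362-88467391 (minus) for MRPL46, chr17:75261887-75261916 (plus) for MRPS7, chr7:43869480-43869509 (minus) for MRPS24, chr6:30617852-30617881 (plus) for MRPS18B, chr3:131502985-131503014 (minus) for MRPL3, chr12:6493364-6493393 (minus) for MRPL51 and chr4:83455911-83455940 (plus) for MRPS18C.
MRPS30: aatcgcgggcaAAGATGGCggcggccaggt
MRPL46: tgggagaacgaAAGATGGCggcgcccgtaa
MRPS7: cgtggccagccAAGATGGCtgcccccgcag
MRPS24: ccgcttggcccAAGATGGCggcctccgtgt
MRPS18B: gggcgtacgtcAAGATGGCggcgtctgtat
MRPL3: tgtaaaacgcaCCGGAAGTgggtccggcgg
MRPL51: ggcgctccaaaACTTCCGGcaggcggaccg
MRPS18C: agaaaggtgctGCGCATGCgtattgaaaaa
In MRPL51 the ETS letters are on the opposite strand and appear as their reverse complement. These matches are letters in a window, and binding was not measured. With MRPL44 left out, the 21 gene names whose promoter held the YY1 letters had a median difference of 0.01 (range -0.07 to 0.16), and the 46 whose promoter did not had 0.04. For the ETS letters the medians were 0.04 over 12 gene names with them and 0.04 over 55 without, and for the NRF1 letters 0.05 over 6 with them and 0.04 over 61 without.

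The absence of calls depended on the variance model, the background correction and the scaling. When limma's variance was allowed to follow intensity, 7 member probes were called higher and 2 lower, and 15.2% of all tested probes were called; the members were MRPS16, MRPS25, MRPS9, MRPL46, MRPS6, MRPL24 and MRPS24 on the higher side and MRPL23-AS1 and MRPL34 on the lower. With normexp background correction, 2 member probes were called higher (MRPS16 and MRPS25) and 2 lower (both MRPL23-AS1), and 7.62% of all tested probes were called. Scaling to the 75th percentile of detected probes called 1 member probe higher (MRPS16), and 2.61% of all tested probes were called. Spike-in scaling called 47 member probes lower, where 44.6% of all tested probes were called lower. With 2 arrays against 2, an exact two-sided permutation test of a single probe cannot give a p below 0.333.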

How the data were processed

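The authors deposited the scanner output of 4 arrays of 1 color (Agilent Feature Extraction 10.7.3.1), with a processed intensity from which background and spatial trend had been removed, without normalization between arrays. The series value table gives this intensity in rounded form, and 0 of its columns matched no sample. Here, outlier spots (356 to 395 per array) were left out, spots were averaged per probe as log2 intensity, and the 75th percentile of each array (178.8 to 189.7 intensity units) was subtracted. No spot was saturated (0 on each array). Between 40.3% and 41.9% of probes exceeded background clearly on a given array, and probes were tested when this held on both arrays of 1 group. Groups came from the labels and were compared by lmFit and eBayes of limma (version 3.58.1, under R 4.3.3) without covariates, with Benjamini-Hochberg adjustment over all 20328 tested probes. The script was tested on simulated data. The number of arrays limits the precision.

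A gene was represented by its tested probe of highest mean signal. The text names members past the threshold, the 6 highest and 6 lowest differences, probes whose mimic arrays differed by over 2 log2 units, the 4 highest and 4 lowest signals, members whose probes differed by over 0.5, and 16 members with known roles; other members (MRPL24, MRPL19, MRPL23 and MRPL42) and genes of other lists were chosen after their values were seen. The members and lists were chosen with earlier results of these data known. Names and coordinates (hg19) follow the array files. Untranslated regions were not analysed here. Alternatives were other background corrections, scalings, detection filters, variance models, the methods' t-test, a replicate block and leaving out each array or the 22 probes whose mimic arrays disagreed.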

Additional observations from a re-analysis of the deposited data

How the results depend on the processing

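The count of called members was also 0 under quantile normalization, the series value table, detection on all 4 arrays, robust eBayes and without the 22 probes whose mimic arrays disagreed, where 2.35% to 3.04% of all tested probes were called. It was 0 with no filter and with detection on at least 1 array too, but there 0 probes were called in all. Normexp background correction called 2 members higher and 2 lower, with 7.62% of all tested probes called. The 75th percentile of detected probes called 1 member higher, with 2.61% of all tested probes called. The intensity trend called 7 higher and 2 lower (15.2% of all tested probes called). Spike-in scaling called 47 lower (44.6% of all tested probes called lower). The methods' t-test called 15 higher and 4 lower unadjusted (20% of members, 20.2% of all tested probes), and after Benjamini-Hochberg adjustment 0 members and 0 probes in all. Leaving out each array in turn gave 0 to 1 higher, the 1 being MRPL44 without the second mimic array (a difference of 5.79), and 0 lower, with 0% to 1.42% of all tested probes called. The median over member genes was 0.0505 with the percentile of detected probes, -0.152 with spike-in scaling, and 0.0226 to 0.0408 when arrays were left out. Members over 1.5-fold numbered 2 without a filter and 2 with detection on at least 1 array, settings added after seeing the data, and 0 without the probes whose mimic arrays disagreed. Spike-in scaling, which lowered every difference by 0.19, left 4 of 95 member probes higher instead of 63. Among named members whose 95% interval left out 0 under either scaling, it turned the sign of several. These included MRPS9 (-0.015), MRPL46 (-0.022), MRPS6 (-0.064), MRPS23 (-0.070), MRPL24 (-0.079), MRPL51 (-0.16), MRPL12 (-0.15), MRPL10 (-0.15) and MRPS12 (-0.17). MRPL42 (-0.18) and the MRPL19 probe on 10 spots (-0.18) were also among them. Apart from the scaling, the cause of these shifts was not tested. The labels give the arrays only a shared number; the replicate differences of the groups correlated at 0.03 over all tested probes and at 0.25 over member probes other than that of MRPL44. With the replicate block 0 members were called higher and 0 lower, and 0 probes were called in all; 7 members (7.37%) and 21.6% of all tested probes had an unadjusted p under 0.05. A slide or scan block was not run, because the arrays shared 1 slide. At 2 arrays a group, the median SE of a member probe was 0.04.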
